A study of Mus musculus with 8 samples.

Results

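The subject is a set of 7 genes that encode structural parts of basement membranes: Col4a1, Col4a2, Col4a5 and Col4a6 (collagen IV chains), Col18a1 (collagen XVIII), Hspg2 (perlecan) and Agrn (agrin). They were picked by gene symbol, and all 7 were found among the 32285 genes of the matrix. They were followed across 4 cell groups of aortas from young wild-type mice, cut from the ascending thoracic segment. Cells had been tagged with 3 hashtag antibodies, which mark animals of 11, 12 and 13 weeks, and each hashtag is read here as 1 animal. Smooth muscle cells (SMC), fibroblasts, endothelial cells and macrophages were told apart by genes outside the set. The SMC group held barcodes with at least 1.5% of UMIs (unique molecular identifiers, each standing for 1 captured transcript) from Acta2, Tagln and Myh11. The fibroblast group needed at least 0.3% from Dcn, the endothelial group at least 3 UMIs of Pecam1, Cdh5 and Gpihbp1 together, and the macrophage group at least 3 of C1qa, C1qb and C1qc.

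A basement membrane is a thin sheet of matrix that lies under endothelium and wraps each smooth muscle cell of the vessel wall. Its collagen IV network is made of trimers, and the chains of a trimer come from neighbouring gene pairs: Col4a1 with Col4a2, Col4a5 with Col4a6, and Col4a3 with Col4a4, whose products join that of Col4a5. Collagen XVIII, perlecan and agrin carry heparan sulfate chains, bind growth factors and link the network to laminin and to cell surface receptors. The protein made from Col18a1 can be cut to release endostatin, a fragment known to slow vessel growth.

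The paired genes share a layout in the genome that can be read from the RefSeq promoter table (build GRCm38.p6, the patch release of mm10), which held a window for all 7 members. Col4a1 (minus strand, start site chr8:11312826) and Col4a2 (plus strand, start site chr8:11312805) lie on opposite strands with start sites 21 bases apart, so that their 5′ ends overlap. The sequence from one start to the other, which both transcripts cover, is shown for this reason. It is read on the plus strand of chr8:11312805-11312826, and the capitals mark a GGGCGG motif (GC box).
Col4a1 and Col4a2: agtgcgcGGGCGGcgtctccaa
Col4a5 (plus strand) and Col4a6 (minus strand) are transcribed away from each other. Their start sites lie 1343 bases apart, and their promoter windows do not overlap. The bases before each gene, up to its first annotated base, are shown to set this pair beside the first. They come from chrX:141475169-141475369 on the plus strand and chrX:141474096-141474326 on the minus strand, and the capitals mark a CCAAT motif.
Col4a5: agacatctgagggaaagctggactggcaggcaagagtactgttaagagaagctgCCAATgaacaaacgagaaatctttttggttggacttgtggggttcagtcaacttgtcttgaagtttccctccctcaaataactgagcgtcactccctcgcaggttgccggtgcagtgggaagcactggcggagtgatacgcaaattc
Col4a6: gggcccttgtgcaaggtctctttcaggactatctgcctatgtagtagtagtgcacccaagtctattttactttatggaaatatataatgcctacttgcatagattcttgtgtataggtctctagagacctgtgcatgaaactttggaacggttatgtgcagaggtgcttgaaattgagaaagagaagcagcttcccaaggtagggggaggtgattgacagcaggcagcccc

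Windows of 250 bases before to 50 after a start site were searched on both strands for 4 motifs: the GC box (spelled GGGCGG), the CCAAT motif, the TATA box (spelled TATAAA) and the CArG box, a motif of smooth muscle genes. GGGCGG was found in 35.6% of all 32817 windows, CCAAT in 37.4%, TATAAA in 13.6% and the CArG box in 1.63%. The Col4a1 window held 1 GGGCGG and the Col4a2 window 3, with GC contents of 74% and 73.7%. These windows share 78 bases, so a match there counts for both. The Col4a5 and Col4a6 windows held 1 GGGCGG each, with GC contents of 52.7% and 48.3%. The Hspg2 window (chr4:137468553-137468852, plus strand) held 5. Agrn and Col18a1 (both minus strand) have a pair of listed windows each. The Agrn window at chr4:156197439-156197738 had a GC content of 83.3% and held 12 matches to GGGCGG, counted on both strands. The other, at chr4:156186210-156186509, had a GC content of 61.3% and held 2. The Col18a1 windows held 3 and 0. No member window held TATAAA or the CArG box in these letters. UMIs read from the 3′ end of a transcript do not tell which start was used.

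The matrix held 48467 barcodes, of which 9939 passed the filter (at least 500 genes, at most 20% mitochondrial UMIs, under 10 haemoglobin UMIs) and 8890 fell in exactly 1 group. There were 6722 SMC barcodes (median 7316 UMIs), 1395 fibroblast (4531), 699 endothelial (2599) and 74 macrophage barcodes (3044.5). All 8 SMC, 8 fibroblast, 9 endothelial and 9 macrophage markers on the lists were highest in their own group. The lists include the genes of the gates (Acta2, Tagln, Myh11, Dcn, Pecam1, Cdh5, Gpihbp1, C1qa, C1qb and C1qc). For these the outcome was set by the gates, so only the remaining markers bear on the groups. Smooth muscle RNA was present in every group: the 8 SMC markers summed to 35800 UMIs per 1000000 UMIs of the group (CPM) in SMC, 2900 in fibroblasts, 4397 in endothelial and 4248 in macrophage barcodes. The lymphatic markers summed to 291 CPM in the endothelial group, and mesothelial markers to 150 CPM in the fibroblast group (218 to 541 CPM in its 3 hashtag samples). Without the fibroblast barcodes that held mesothelial markers, 6 members were called in fibroblast minus SMC, as many as with them. A single hashtag was called on 1407 SMC (20.9%), 283 fibroblast (20.3%), 523 endothelial (74.8%) and 58 macrophage barcodes. Tests use the 3 hashtag sums of each group, of 524, 394 and 489 SMC, 121, 74 and 88 fibroblast, and 217, 129 and 177 endothelial barcodes. The p-values measure the spread among these sums, which may be partly technical. Macrophages had 16, 15 and 27 barcodes; 2 of these are under the minimum of 20 set for a test, so none was run and values are given.

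Smooth muscle RNA in other droplets matters for genes that SMC express strongly, so barcodes of cells not expected to make these genes serve as a reference. In 85 lymphocyte barcodes (median 3030 UMIs), chosen after the data were seen as were the red cell barcodes, Col18a1 stood at 110 CPM (95% Poisson interval 76.8 to 153), Col4a1 at 56.7 and Col4a5 at 22.1. The other members stood at 9.45 to 18.9 CPM there. In 74 macrophage barcodes Col4a2 stood at 86.6 CPM (54.3 to 131), Col18a1 at 74.8, Col4a1 at 66.9 and Col4a5 at 31.5. Per 1000 Acta2 UMIs, macrophages held 48.9 of Col4a2 (30.3 to 75.0) against 19.9 in SMC, and 37.8 of Col4a1 (21.8 to 61.2) against 41.6. Macrophages are thus a less sure reference for Col4a2, and whether they make it was not tested. In 2636 red cell barcodes, with CPM taken over UMIs other than haemoglobin, Col18a1 stood at 261, Col4a1 at 153, Hspg2 at 63.9, Col4a2 at 57.5, Col4a5 at 52.1, Col4a6 at 28.5 and Agrn at 6.88. Poisson intervals cover counting error only.

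**Figure D1:**
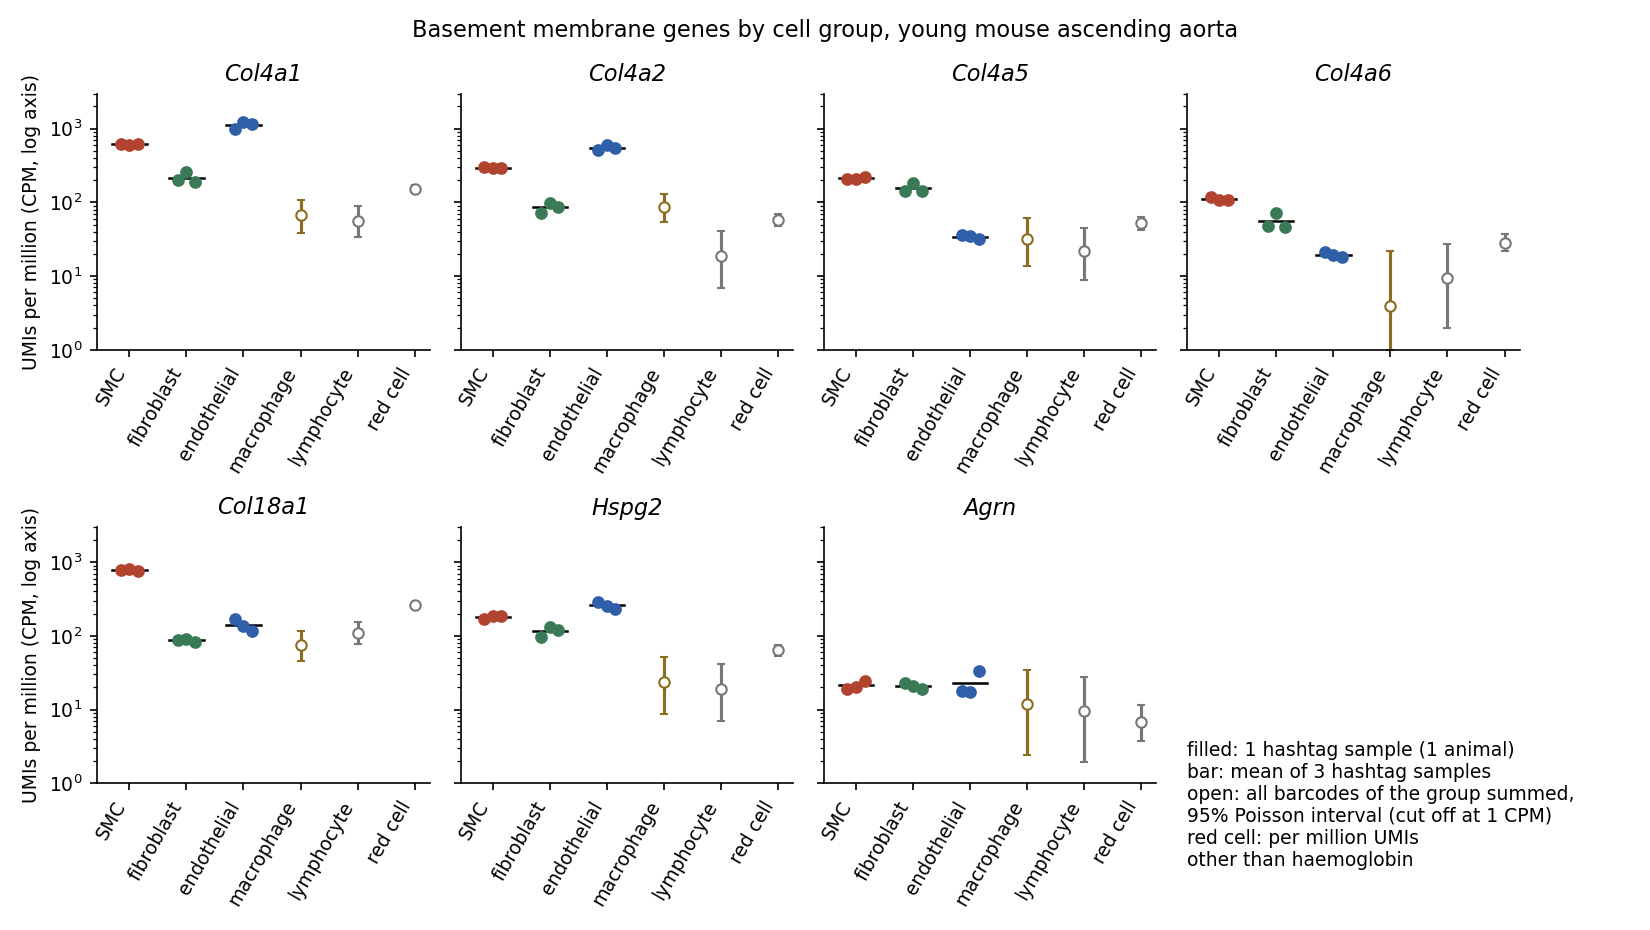
CPM (log axis) of each of the 7 genes by cell group. Filled points are hashtag samples with their mean as a bar, and open points are all barcodes of a group summed, with 95% Poisson intervals. Col4a1, Col4a2 and Hspg2 are highest in the endothelial samples, Col4a5, Col4a6 and Col18a1 in the SMC samples, and the Agrn samples of the 3 tested groups overlap.

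Which cells of the wall hold transcripts of the main collagen IV network was asked first. Among the 3 groups tested, Col4a1 and Col4a2, the pair found in nearly all basement membranes, were highest in endothelial cells, intermediate in SMC and lowest in fibroblasts. Of the 699 endothelial barcodes, 587 held Gpihbp1, a capillary gene, and no Vwf. In the 60 with Vwf and no Gpihbp1, both genes lay below SMC, as described further on. Col4a1 stood at 616, 604 and 611 CPM in the SMC samples of hashtags 1, 2 and 3. It stood at 994, 1231 and 1175 CPM in the endothelial samples and at 203, 255 and 190 CPM in the fibroblast samples. No sample of one group reached the range of another. Col4a1 was 1.69-fold higher in endothelial cells than in SMC (log2 fold change 0.75 ± 0.09 SE, edgeR quasi-likelihood test with Benjamini-Hochberg adjustment, adjusted p = 6.21e-08). In fibroblasts it was 2.95-fold lower than in SMC (log2 fold change -1.56 ± 0.11, edgeR adjusted p = 5.77e-12).

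Col4a2 followed the same order. Its levels were 305, 291 and 294 CPM in SMC, 518, 599.8 and 546 CPM in endothelial cells and 71.0, 97.1 and 87.6 CPM in fibroblasts, again without overlap. The endothelial level was 1.70-fold above that of SMC (log2 fold change 0.76 ± 0.09, edgeR adjusted p = 1.15e-07). The fibroblast level was 3.67-fold below that of SMC (log2 fold change -1.87 ± 0.13, edgeR adjusted p = 6.28e-12). At 81.6 CPM over all barcodes (95% Poisson interval 75.0 to 88.7), it lay close to the 86.6 CPM of macrophages, which rests on 22 UMIs. It lay above the 18.9 CPM of lymphocytes (6.94 to 41.2) and the 57.5 CPM of red cell barcodes (47.6 to 68.9). UMIs of Col4a1 and Col4a2 stood at a ratio of 2.06 ± 0.03 (SD, n = 3) in SMC, 2.04 ± 0.12 in endothelial cells and 2.55 ± 0.35 in fibroblasts. Over all barcodes, with or without a hashtag call, the ratios were 2.09, 2.04 and 3.05. The UMIs come from 3′ ends and carry no term for transcript length, but capture can differ between genes, so the ratio is compared between groups and not read as a ratio of chains.

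Of the 7 members, 6 were called lower in fibroblasts than in SMC and 0 higher, where 20.8% of the 7804 genes tested were lower, 21.8% higher and 42.6% changed either way. Between endothelial cells and SMC, 3 members were higher and 3 lower, against 26.5% and 29% of all genes (55.5% in either direction). Between endothelial cells and fibroblasts, 4 were higher and 2 lower, against 20.1% and 21.4% (41.5% in either direction). The first pair of comparisons shares the SMC samples, and the endothelial and fibroblast samples are each used in 2 of the 3 comparisons. The median log2 fold change over all genes was 0.01, -0.04 and 0.00 in these comparisons.

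**Figure D2:**
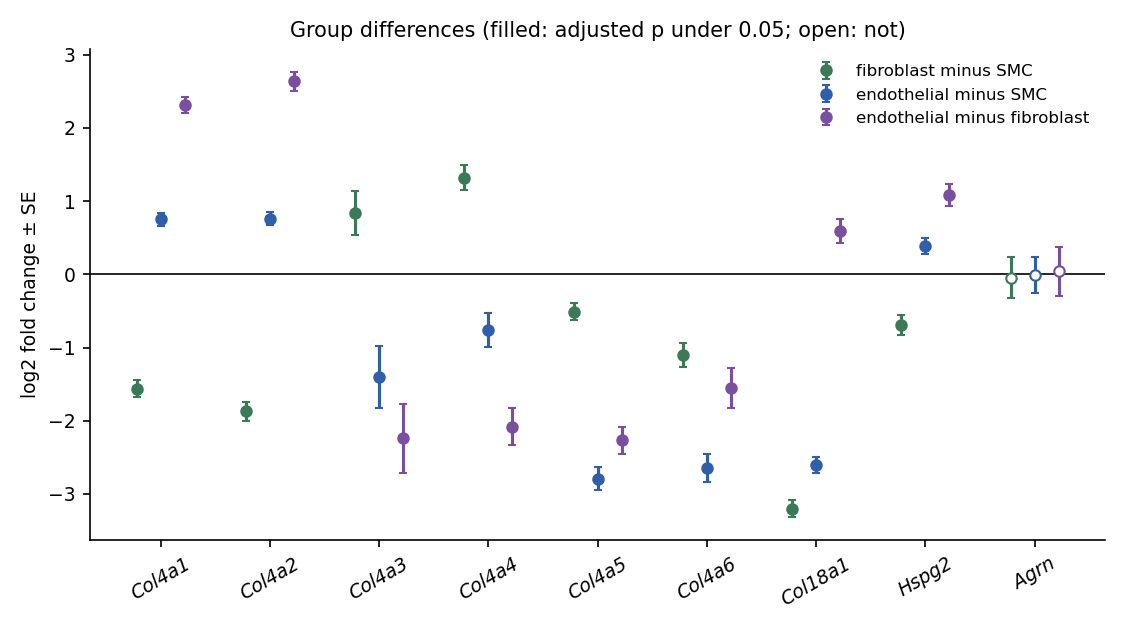
Log2 fold changes with standard errors for the 7 members and for Col4a3 and Col4a4 in the 3 comparisons, with filled points at an adjusted p under 0.05. Agrn is the only gene with open points, and Col4a5 and Col4a6 lie below 0 in every comparison.

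The products of Col4a5 and Col4a6 form a collagen IV network of smooth muscle basement membranes. Among the 3 groups tested, both genes were lowest in endothelial cells, where Col4a1 and Col4a2 were highest. Col4a5 stood at 209, 209 and 224 CPM in SMC, 144, 184 and 143 CPM in fibroblasts and 35.7, 34.8 and 31.6 CPM in endothelial cells. SMC were thus highest and endothelial cells lowest, with no overlap. Col4a5 was 6.9-fold lower in endothelial cells than in SMC (log2 fold change -2.79 ± 0.16, edgeR adjusted p = 3.69e-14). Against fibroblasts it was 4.83-fold lower (log2 fold change -2.27 ± 0.19, edgeR adjusted p = 1.98e-10). The step from SMC to fibroblasts was small, 1.43-fold (log2 fold change -0.51 ± 0.12, edgeR adjusted p = 0.000868), and at most 10% mitochondrial UMIs per barcode it was no longer called (-0.41 ± 0.17, edgeR adjusted p = 0.0653).

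Col4a6 stood at 117, 108 and 109 CPM in SMC, 48.4, 70.9 and 47.0 CPM in fibroblasts and 21.1, 19.4 and 18.04 CPM in endothelial cells. The fibroblast level was 2.14-fold below SMC (log2 fold change -1.10 ± 0.16, edgeR adjusted p = 3.88e-06) and the endothelial level 6.26-fold below (log2 fold change -2.65 ± 0.19, edgeR adjusted p = 1.07e-11). Endothelial cells were also lower than fibroblasts (log2 fold change -1.55 ± 0.27, edgeR adjusted p = 3.8e-05). That last call was lost when barcodes in 2 groups were given to the group other than SMC (-0.16 ± 0.18, edgeR adjusted p = 0.57) and with the SMC gate at 3% (-0.37 ± 0.20, edgeR adjusted p = 0.152). Over all endothelial barcodes, Col4a5 (37.0 CPM, 95% Poisson interval 29.7 to 45.4) lay below its 52.1 CPM in red cell barcodes and above its 22.1 CPM in lymphocytes, within the lymphocyte interval (8.87 to 45.5). Col4a6 (20.5 CPM, 15.2 to 27.1) likewise lay between 28.5 and 9.45 CPM. Per 1000 Acta2 UMIs, endothelial cells held 20.5 of Col4a5 (16.5 to 25.3) against 15.0 in SMC (14.7 to 15.3). They held 11.4 of Col4a6 (8.45 to 15.1) against 7.80 (7.59 to 8.003). Fibroblasts held 116 and 43.4. How much of the endothelial UMIs of this pair is smooth muscle RNA was not tested. The size of the folds against SMC depended on which endothelial barcodes were used. With barcodes of 2 groups added, they were -1.22 ± 0.11 for Col4a5 and -1.18 ± 0.12 for Col4a6 on the log2 scale. With barcodes of at least 0.75% smooth muscle UMIs left out, they were -3.36 ± 0.18 and -3.04 ± 0.24. The added barcodes had passed the SMC gate, so both settings select on smooth muscle UMIs and do not separate mixed droplets from free RNA.

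The makeup of the collagen IV transcripts therefore differed between groups. Of the UMIs of all 6 collagen IV genes, Col4a1 and Col4a2 took 70.4% ± 0.234 in SMC (mean ± SD, n = 3), 46.7% ± 0.869 in fibroblasts and 95.2% ± 0.477 in endothelial cells. Col4a5 and Col4a6 took 25.3% ± 0.521, 32.8% ± 1.34 and 3.05% ± 0.455 in the same order. The fibroblast share of Col4a5 and Col4a6 thus exceeded that of SMC in all 3 samples although both genes were lower there. The gap was smaller over all barcodes, with or without a hashtag call: 28.8% in fibroblasts (exact 95% interval 27.5 to 30.1) against 25.9% in SMC (25.6 to 26.3). Col4a1 and Col4a2 took 49.2% of all fibroblast UMIs of the 6 genes. Both fibroblast values lay outside the range of the 3 hashtag samples, so the SDs understate the uncertainty there. Col4a3 and Col4a4, which are not members but complete the family, took 4.27% ± 0.457 in SMC, 20.5% ± 2.10 in fibroblasts and 1.75% ± 0.566 in endothelial cells.

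Col4a4 and Col4a3 were the collagen IV genes, of the 6, that were higher in fibroblasts than in SMC. Col4a4 stood at 80.7, 129 and 98.3 CPM against 39.5, 45.2 and 32.4 CPM (log2 fold change 1.32 ± 0.17, edgeR adjusted p = 5.96e-07). The groups did not overlap. Col4a3 stood at 30.7, 15.8 and 40.6 CPM in fibroblasts and 16.0, 15.1 and 16.9 CPM in SMC, which do overlap (log2 fold change 0.84 ± 0.30, edgeR adjusted p = 0.0268). These fibroblast sums hold 19, 6 and 19 UMIs of Col4a3.

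**Figure D3:**
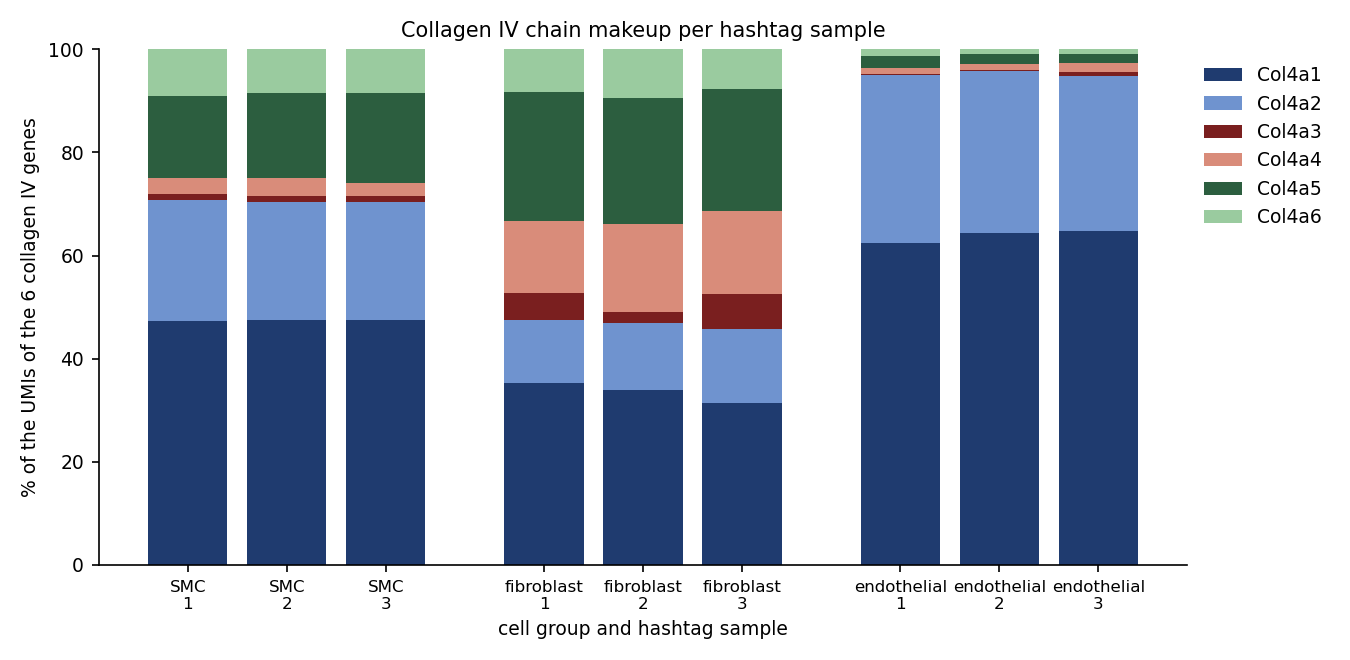
Share of each chain in the UMIs of the 6 collagen IV genes, per hashtag sample (3 bars a group, each adding to 100%). Col4a1 and Col4a2 fill nearly all of the endothelial bars, and Col4a3 with Col4a4 are widest in the fibroblast bars.

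Col18a1 was the member with the largest difference between SMC and fibroblasts. It stood at 789, 803 and 747 CPM in SMC, the highest level of any member there. The endothelial samples stood at 167, 135 and 117 CPM and the fibroblast samples at 88.8, 91.9 and 83.3 CPM, with no overlap between the 3 groups. SMC exceeded fibroblasts 9.21-fold (log2 fold change -3.20 ± 0.12 for fibroblast minus SMC, edgeR adjusted p = 3.91e-17). They exceeded endothelial cells 6.12-fold (-2.61 ± 0.11, edgeR adjusted p = 1.12e-16), or by -1.26 ± 0.08 with barcodes of 2 groups added and -3.28 ± 0.12 with barcodes of at least 0.75% smooth muscle UMIs left out.

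The fibroblast level of Col18a1 (90.4 CPM over all barcodes) lay below that of lymphocyte barcodes (110 CPM), and the endothelial level (138 CPM, 124 to 154) lay within the lymphocyte interval. Per 1000 Acta2 UMIs the count of Col18a1 was 54.4 in SMC, 74.5 in fibroblasts, 76.9 in endothelial cells, 42.2 in macrophages and 67.8 in lymphocytes. Col18a1 per Acta2 UMI was thus above SMC in fibroblasts (68.5 to 80.9) and endothelial cells (68.6 to 85.9). The lymphocyte interval, 46.7 to 95.6, covers the values of both and of SMC, and red cell barcodes held 46.3. How much of the Col18a1 of fibroblasts and endothelial cells is smooth muscle RNA was not tested. Endothelial cells were higher than fibroblasts (log2 fold change 0.59 ± 0.16, edgeR adjusted p = 0.00412). This was not called without hashtag 1 (0.42 ± 0.20, edgeR adjusted p = 0.12), with at most 10% mitochondrial UMIs (0.50 ± 0.22, edgeR adjusted p = 0.0859), or when barcodes with at least 0.75% smooth muscle UMIs were left out of both groups (0.23 ± 0.19, edgeR adjusted p = 0.337). With barcodes of 2 groups added it was 1.44 ± 0.12, and with the SMC gate at 3% it was 1.18 ± 0.13.

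Hspg2 encodes perlecan, the large heparan sulfate proteoglycan of vascular basement membranes. It stood at 290, 257 and 229 CPM in endothelial cells, 167, 185 and 187 CPM in SMC and 96.9, 134 and 122 CPM in fibroblasts. The order was that of Col4a1 and Col4a2, with smaller steps and no overlap. Endothelial cells were 1.31-fold above SMC (log2 fold change 0.39 ± 0.11, edgeR adjusted p = 0.00469), which was not called without hashtag 1 (0.23 ± 0.12, edgeR adjusted p = 0.154). Fibroblasts were 1.61-fold below SMC (-0.69 ± 0.14, edgeR adjusted p = 0.000226). Endothelial cells were 2.11-fold above fibroblasts (1.08 ± 0.15, edgeR adjusted p = 1.6e-06). All 3 groups exceeded the 18.9 CPM of lymphocytes and the 63.9 of red cell barcodes.

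Agrn, which encodes the proteoglycan known for gathering acetylcholine receptors at nerve endings on muscle, was the lowest member in SMC and fibroblasts. It stood at 19.2, 20.1 and 24.5 CPM in SMC, 22.6, 21.0 and 19.2 CPM in fibroblasts and 17.8, 17.4 and 33.1 CPM in endothelial cells. All groups overlapped. The log2 fold change was -0.05 ± 0.28 for fibroblasts and -0.01 ± 0.25 for endothelial cells against SMC (edgeR adjusted p = 0.917 and 0.996). Differences within 2 standard errors span 0.66-fold to 1.43-fold and 0.70-fold to 1.41-fold, so a modest difference was not detectable at this depth. The sums hold 8 to 90 UMIs of Agrn each.

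Detection per cell followed the levels once depth was made equal. With each barcode thinned to 1000 UMIs, Col4a1 was found in 52.9% of endothelial barcodes (exact 95% interval 49.2 to 56.7), 43.8% of SMC (42.6 to 45.0) and 19.8% of fibroblasts (17.7 to 21.97), against 8.11% of macrophages (3.03 to 16.8). Without thinning, the shares were 81.4%, 94.6%, 55.6% and 16.2%, at the median depths given above. Col18a1 was found in 51.6% of SMC, 11.2% of endothelial cells and 7.03% of fibroblasts after thinning (95.5%, 22.6% and 25.2% without), beside 9.46% of macrophages (18.9% without). The macrophage interval, 3.89 to 18.5%, covers the fibroblast and endothelial shares. Hspg2 was found in 22.5% of thinned endothelial barcodes, 16.5% of SMC and 10.8% of fibroblasts (49.4%, 69.4% and 37.9% without thinning), and in 0 of 74 thinned and 4.05% of unthinned macrophages.

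Transcripts of a pair were also counted in the same barcodes. In thinned endothelial barcodes, Col4a2 was found in 41.9% of those with Col4a1 (36.8 to 47.1) and 28.3% of those without (23.5 to 33.5). In fibroblasts the shares were 14.9% (10.9 to 19.6) and 5.45% (4.195 to 6.95). In SMC they were 25.4% (23.9 to 27.0) and 22.6% (21.3 to 24.0). For Col4a6 in SMC they were 9.94% of barcodes with Col4a5 and 10.7% of those without. Hspg2 was found in 27.6% of endothelial barcodes with Col4a1 and 16.7% of those without, while in SMC the shares were 17.0% and 16.0% and in fibroblasts 10.5% and 10.8%. Whether the groups differ in this was not tested. Cells of 1 animal are not replicates, so these shares describe the barcodes and carry no test.

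The endothelial group was not uniform. Barcodes with Gpihbp1, the lipase anchor of capillary endothelium, and no Vwf (587 barcodes, median 2450 UMIs) were set beside those with Vwf, the von Willebrand factor gene of larger vessels, and no Gpihbp1 (60 barcodes, median 4612 UMIs). Gpihbp1 is part of the endothelial gate, so the second subset entered through Pecam1 and Cdh5 alone. The lymphatic markers of the endothelial group (291 CPM) were not counted by subset. The Vwf subset is therefore named by its gene and not by a vessel type. Col4a1 stood at 1140, 1548 and 1350 CPM in the Gpihbp1 samples and at 207, 233 and 183 CPM in the Vwf samples. Col4a2 stood at 609.8, 752 and 633 against 55.1, 132 and 87.0 CPM. Hspg2 stood at 308, 294 and 254 against 165, 162 and 104 CPM. The subsets did not overlap for these 3 genes, and the Vwf samples of Col4a1 and Col4a2 lay below every SMC sample. The share of all genes without overlap between the subsets was not counted.

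The Vwf samples hold 14, 13 and 23 barcodes, 2 of them under the minimum of 20 set for a test. The subsets are therefore set beside each other with no test. Col4a4 had the opposite order, at 7.998, 2.74 and 10.02 CPM in the Gpihbp1 and 124, 101 and 122 CPM in the Vwf samples. Its subsets did not overlap either.

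With the endothelial group limited to the Vwf subset, an alternative chosen after the data were seen, the comparison with SMC turned. The minimum of 20 barcodes was lowered for this fit alone, which used sums of 14, 13 and 23 barcodes. Col4a1 was then lower than in SMC (log2 fold change -1.75 ± 0.18, edgeR adjusted p = 1.2e-08), as was Col4a2 (-1.84 ± 0.25, edgeR adjusted p = 1.01e-06), and Hspg2 stood at -0.55 ± 0.23 (edgeR adjusted p = 0.071). Of the 191 collagen IV UMIs of the Vwf subset, 57.6% were Col4a1 or Col4a2 (exact 95% interval 50.3 to 64.7), 26.7% Col4a3 or Col4a4 (20.6 to 33.6) and 15.7% Col4a5 or Col4a6 (10.9 to 21.7). In the Gpihbp1 subset the shares were 96.9%, 0.580% and 2.54%. Acta2 stood at 2149, 1581 and 1548 CPM in the Gpihbp1 and 1668, 516 and 1174 CPM in the Vwf samples.

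**Figure D4:**
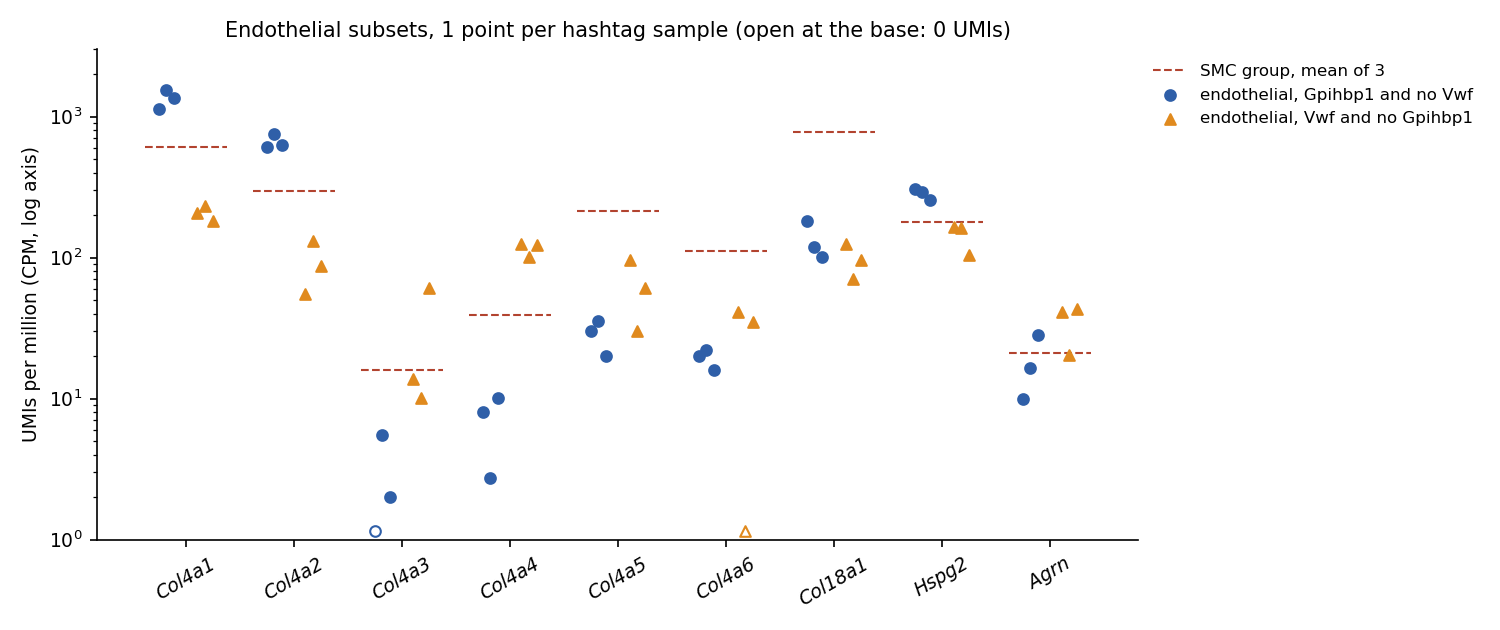
CPM (log axis) in the Gpihbp1 and the Vwf endothelial subsets, 1 point per hashtag sample, with the SMC mean as a dashed line. The subsets lie on opposite sides of the SMC line for Col4a1, Col4a2, Hspg2 and Col4a4.

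Within SMC, a split by Tnnt2 and Pln was set up as a description. Barcodes with Pln and no Tnnt2 (855) held Col18a1 at 867, 973 and 753 CPM, above the 741, 722 and 709 CPM of those with Tnnt2 and no Pln (1550). They held Col4a2 at 239, 229 and 225 CPM, below 309, 317 and 294 CPM. The subsets did not overlap for these members and did for the other 5. How many of all genes were without overlap was not counted, so this describes the members only. In fibroblasts, barcodes with Lum and no Pi16 (390) held Col4a1 at 223, 250 and 252 CPM, and those with Pi16 and no Lum (112) at 75.4, 54.5 and 159 CPM. Hspg2 went the other way, at 92.3, 65.2 and 84.1 CPM in the Lum and 113, 136 and 220 CPM in the Pi16 samples. The samples of the remaining members overlapped, and the share of all genes without overlap was not counted here either. The Pi16 samples had only 10, 8 and 12 barcodes. A further 115 barcodes gated on the pericyte genes Kcnj8, Abcc9 and Higd1b, outside the 4 groups, held Col18a1 at 595 CPM (541 to 653), Col4a1 at 569.6 (517 to 626) and Col4a6 at 164 (136 to 195). Relative to SMC (792, 607 and 114 CPM), Col18a1 was lower there and Col4a6 higher, beyond counting error, and Acta2 was at 4199 CPM against 14580.

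The remaining basement membrane genes were counted by list. Beside each count stand the shares of all 7804 genes tested: 21.8% higher and 20.8% lower in fibroblasts than in SMC, and 26.5% higher and 29% lower in endothelial cells. The median log2 fold changes of all genes were 0.01 and -0.04. Of 13 laminins and nidogens, 8 were tested. In fibroblasts 5 were higher than in SMC and 2 lower, with a median log2 fold change of 1.01. Nid1, which bridges laminin to collagen IV, was at 656 CPM in fibroblasts and 10.4 in SMC (5.71 ± 0.15, edgeR adjusted p = 3.03e-20). Lama2, Lamb1 and Lamc1, which make up a laminin trimer, were higher by 2.93, 5.78 and 1.40 on the log2 scale. Lama5, a laminin chain of endothelial membranes, was lower in fibroblasts (-3.30 ± 0.43, edgeR adjusted p = 4.62e-07). It was not called between endothelial cells and SMC (-0.36 ± 0.23, edgeR adjusted p = 0.184). Endothelial cells had 4 of the 8 higher and 3 lower than SMC (median 0.09).

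Of 18 other basement membrane genes, 12 were tested, with 7 higher and 2 lower in fibroblasts than in SMC (median 0.74) and 5 higher and 6 lower in endothelial cells (median -0.52). Npnt, an integrin ligand, was lower in both (-3.40 ± 0.14 and -2.88 ± 0.12). Smoc2 was higher in fibroblasts (5.20 ± 0.17), and Hmcn1 was higher in endothelial cells (5.90 ± 0.42).

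Of 16 tested genes that fold and cross-link collagen IV, 8 were higher and 1 lower in fibroblasts than in SMC (median 0.38). Ppib and Serpinh1, chaperones of collagen in general, rose by 0.90 and 0.87 on the log2 scale. In endothelial cells 3 were higher and 8 lower than in SMC (median -0.32). Pxdn, the peroxidase that forms the sulfilimine bond between collagen IV trimers, was the most clearly higher (2.51 ± 0.16, edgeR adjusted p = 1.08e-12), at 107 CPM against 20.2 in SMC and 28.5 in fibroblasts. Plod2 was lower (-2.49 ± 0.18) and Plod1, another lysyl hydroxylase, was higher (1.69 ± 0.20).

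Perlecan, agrin and collagen XVIII need the heparan sulfate enzymes. Of 12 tested, 5 were higher and 2 lower in fibroblasts than in SMC (median 0.47), and 2 higher and 4 lower in endothelial cells (median -0.22). The endothelial count, 6 of 12 in either direction, is near the 55.5% of all genes. Ext1, a subunit of the chain polymerase, was lower in both (-1.02 ± 0.17 and -0.71 ± 0.15), and Hs3st1 was higher in both (2.19 ± 0.51 and 2.64 ± 0.43). Of the 6 cell surface proteoglycans tested, 2 were higher and 1 lower in fibroblasts, led by Gpc3 (4.35 ± 0.13), and 1 was higher (Sdc3, 2.40 ± 0.24) and 4 lower in endothelial cells. The medians were 0.47 and -1.55.

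Of 10 receptors tested, 1 was higher and 6 lower in fibroblasts than in SMC (median -0.98). Itga1, the collagen IV binding integrin chain, fell by 2.39 on the log2 scale in fibroblasts and rose by 1.60 in endothelial cells, to 775 CPM. Its partner Itgb1 was highest in SMC, at 1876 CPM. Itga6, a laminin receptor chain, rose by 7.17 in endothelial cells against SMC (SE 0.16, edgeR adjusted p = 6.09e-22), one of 2 receptors higher there beside 8 lower (median of the list -1.10). Ddr2, a collagen receptor, was the 1 higher in fibroblasts (1.21 ± 0.11). Of 5 proteases tested, 4 were higher in fibroblasts than in SMC and 0 lower (median 2.06). Mmp2 was at 320.5 against 10.8 CPM (4.51 ± 0.15), and Ctsl, Mmp14 and Bmp1 rose by 2.01, 2.21 and 2.06 on the log2 scale. In endothelial cells 1 was higher and 2 lower (median -0.10). Every fold change of these lists comes from the edgeR fit over all 7804 genes.

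The genes most like each member were ranked by Pearson r of log2(CPM + 1) over the 9 hashtag sums, among 6204 genes with a mean of at least 20 CPM. The sums share animals and libraries, and their spread is mostly between the 3 groups, so r describes the order of the groups. Among the 3 nearest to Col4a1 were Tm4sf1 (r = 0.993) and Tinagl1 (0.9904), and among the 3 nearest to Col4a2 were Sparcl1 and Tm4sf1. For Col4a5 they were Tcea3, Ptprd and Golgb1, and for Col4a6 Hmgn1, Lhfp and Ptgis. Col18a1 lay nearest to Pls3 (0.998), Fblim1 and Actn1. For Hspg2 they were Fryl (0.977), Tle4 and Kmt2d, and for Agrn no gene exceeded 0.919 (Lsm14a). Among the members, r was 0.994 for Col4a1 with Col4a2, 0.966 for Col4a5 with Col4a6 and 0.941 for Col4a1 with Hspg2, while Col4a1 with Col4a5 gave -0.612.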

How the data were processed

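Tissue was digested for 60 min with type II collagenase and elastase, and 3′ libraries were made on a 10x Chromium, per the labels' protocols. The 4 gene expression and 4 hashtag libraries were deposited as 1 matrix of raw UMI counts, with no map from barcode to library. Per the file headers, Cell Ranger 6.0.1 wrote it. Per the submitters' processing notes, the build was mm10 and Seurat 4.0.5 was used. No source used here names the annotation.

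Counts were summed per group, with barcodes in 2 or more groups (426) left out and no doublet caller run. Hashtags were called with HTODemux (Seurat 5.3.0, positive quantile 0.99). Sums per hashtag and group were tested with edgeR 4.0.16 in R 4.3.3 (quasi-likelihood, TMM, filterByExpr, hashtag block, Benjamini-Hochberg adjustment over all genes, called at adjusted p under 0.05), checked on simulated data. DESeq2 1.42.0 was an alternative. The standard error is the log2 fold change over the root of F. The block pairs groups of the same animal. Deviations of same-hashtag sums correlated at -0.005 to 0.065 over 3120 genes. The SMC sums held 2988383 to 4073254 UMIs, the fibroblast sums 381011 to 619374 and the endothelial sums 516862 to 665325. CPM is of all gene UMIs, and folds are TMM-scaled. Shares carry exact binomial intervals.

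The members and lists were chosen with earlier results of these data known. The text names all members, up to 4 genes of each list with the smallest adjusted p per comparison or a role needed, and the 3 nearest genes per member (1 gene among them is not reported here); Lama5 against SMC is given for its role. The planned reference for free RNA, barcodes under 500 genes that passed the other filters, held 4 barcodes. Red cell (at least 50% haemoglobin UMIs), lymphocyte and macrophage barcodes were taken in its place after seeing the data. The endothelial subsets as alternative endothelial groups and the fibroblasts without mesothelial markers were also chosen after seeing the data. A fit of one endothelial subset against the other, also run after its values were seen, is not used.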

Additional observations from a re-analysis of the deposited data

How the results depend on the processing

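Among the 276 alternative values of member fold changes, 225 were called in the same direction and 36, all of Agrn, were not called in either fit. Of the rest, 10 kept their direction but lost the call, and 5 turned sign. Sign changes of Agrn are not among the 5. They occurred in some settings, as in fibroblast minus SMC (-0.05 as reported, 0.10 without hashtag 3). Leaving out the replicate block changed no member's call, and fibroblast minus SMC then had 3409 called genes. All 5 counted turns came with endothelial barcodes limited to Vwf and no Gpihbp1: Col4a1 (-1.75), Col4a2 (-1.84) and Hspg2 (-0.55) against SMC, and Col4a1 (-0.20) and Col18a1 (-0.03) against fibroblasts. Of the 5, 2 were still called, in the other direction (Col4a1 and Col4a2 against SMC), and 3 were not. There, 1 member was called between endothelial cells and fibroblasts (6 as reported), and 1877 and 1216 genes were called against SMC and fibroblasts. This alternative was fitted although its samples of 14 and 13 barcodes are under the minimum of 20 kept for the others. At most 10% mitochondrial UMIs gave 2155 (fibroblast minus SMC, 3324 as reported), 2380 (endothelial minus SMC, 4332) and 1919 (endothelial minus fibroblast, 3235) called genes, with 4869 genes tested. The ratio hashtag caller gave 2426 for endothelial minus SMC, with 5520 genes tested. Its fibroblast comparisons are not given, since 17, 5 and 6 barcodes are under the minimum of 20. The macrophage comparison was not run, for the same reason. The minimum of 1000 UMIs removed nothing, since the lowest barcode held 1228.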
